A study of Mus musculus with 11 samples.

Results

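A set of 10 genes of the Notch pathway was followed in hearts of mouse embryos at E14.5: the receptors Notch1, Notch2, Notch3 and Notch4, the ligands Dll4, Jag1 and Jag2, and the target genes Hey1, Hey2 and Heyl. They were chosen by symbol and are 10 of the 55487 gene identifiers in the count tables. RNA was sequenced from 5 hearts of Pde2A-/- embryos and 6 hearts of Pde2A+/+ embryos, with 1 library per heart. The knockout allele was tm1Dgen on a mixed B6; 129P2 background, and both genotypes came from crosses of heterozygous parents. The embryos were of both sexes and were not treated, and neither the sex nor the litter of a single heart was stated. The allele is in the germ line, so every tissue of a Pde2A-/- embryo carried it, and Pde2A is an enzyme that breaks down cAMP and cGMP.

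Notch receptors are membrane proteins that are activated by ligands on a neighbouring cell. Ligand binding exposes the receptor to an ADAM protease and then to the gamma-secretase complex. The intracellular part that is set free joins the DNA-binding protein RBPJ and a Mastermind coactivator in the nucleus, and Hes and Hey genes, which encode transcriptional repressors, are among the direct targets. In the developing heart the pathway is known for the patterning of trabeculae and valves from the endocardium, for arterial identity, and for the coating of vessels with smooth muscle, and Hey2 is also a gene of the compact ventricular myocardium.

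Promoter sequences were taken from RefSeq (GRCm38.p6) to show the letters that RBPJ is known to bind. The core TGGGAA was searched on both strands in windows from 250 bases before to 50 bases after the start of transcription, and 25.6% of the 32851 windows of that table held it. The table held 8 of the 10 genes, without Hey1 and Heyl. Of these 8, only the Hey2 window held the core. Hes5, another classic target described below with the wider pathway, also held it. The stretches from 250 bases before to 10 bases after the start are shown for both genes, 5′ to 3′ on the strand of the gene, with each match in capitals, because both held 2 matches, as 3.79% of all windows did.
Hey2, GRCm38.p6, chr10:30842774-30843033, minus strand: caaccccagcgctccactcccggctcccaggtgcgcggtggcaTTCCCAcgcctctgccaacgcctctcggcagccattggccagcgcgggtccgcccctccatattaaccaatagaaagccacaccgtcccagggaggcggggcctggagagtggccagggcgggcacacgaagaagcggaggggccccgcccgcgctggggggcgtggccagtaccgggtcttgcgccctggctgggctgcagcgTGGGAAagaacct
Hes5, GRCm38.p6, chr4:154960673-154960932, plus strand: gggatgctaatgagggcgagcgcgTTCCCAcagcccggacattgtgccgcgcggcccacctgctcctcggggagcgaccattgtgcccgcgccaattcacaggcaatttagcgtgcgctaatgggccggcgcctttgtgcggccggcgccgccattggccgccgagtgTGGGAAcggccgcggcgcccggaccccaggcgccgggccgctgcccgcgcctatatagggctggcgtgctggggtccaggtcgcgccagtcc
In Hey2 the first match reads on the opposite strand at positions -207 to -202, counted from the start, and the second reads on the strand of the gene at -3 to 3. In Hes5 the first match is also on the opposite strand, at -226 to -221, and the second on the strand of the gene at -82 to -77. A match is a run of letters and not a measured binding site.

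The libraries held 35865537 to 42835382 gene counts, and each of the 10 genes had 703 to 9312 counts in every heart. Counts were scaled by the TMM method to counts per 1000000 (CPM), and 24177 genes were compared between the genotypes by edgeR's quasi-likelihood test, with p-values adjusted over all of them by the Benjamini-Hochberg method. Pde2a, the targeted gene, had at most 2 counts in any library. On its strand 64.3% of its exon bases are shared with Gm45837, and reads there count for neither gene. Whether this overlap accounts for the few counts was not tested. With so few counts in both genotypes, they neither measure its expression nor check the labels. The hearts were rich in cardiomyocyte transcripts, with 32904 to 45094 CPM in the sum of 10 cardiomyocyte genes. Pde2A+/+ heart 7 stood apart with 91.8 CPM in the sum of 8 thymocyte genes, against 1.71 to 3.04 CPM in the other 10 hearts. Pde2A+/+ heart 11 had 18.4 CPM in 5 genes of lung epithelium, against at most 1.12 CPM elsewhere, and 6 liver genes summed to between 35.1 and 111 CPM in Pde2A+/+ hearts 11, H and E and Pde2A-/- heart D, against at most 2.40 CPM in the other hearts. Whether these 5 libraries held tissue from outside the heart was not tested.

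All 10 genes passed the filter of 10 counts over the hearts. One was higher in Pde2A-/- hearts at an adjusted p under 0.05, the receptor gene Notch1, and 1 was lower, the target gene Heyl. Over all genes tested, 8.93% were higher and 5.67% lower at that threshold, 14.6% in all, and among the 10053 genes that averaged 10 CPM or more the share was 25.1%. The 2 calls among 10 genes were thus near the background. None of the 10 genes also reached a 2-fold change, as 2.59% of all genes did. Only Heyl, 1 of the 10 genes, had levels without overlap between the genotypes, as did 8.49% of all genes. Log2 fold changes had a median of 0.01 in the 10 genes and of -0.02 in all genes tested.

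**Figure D1:**
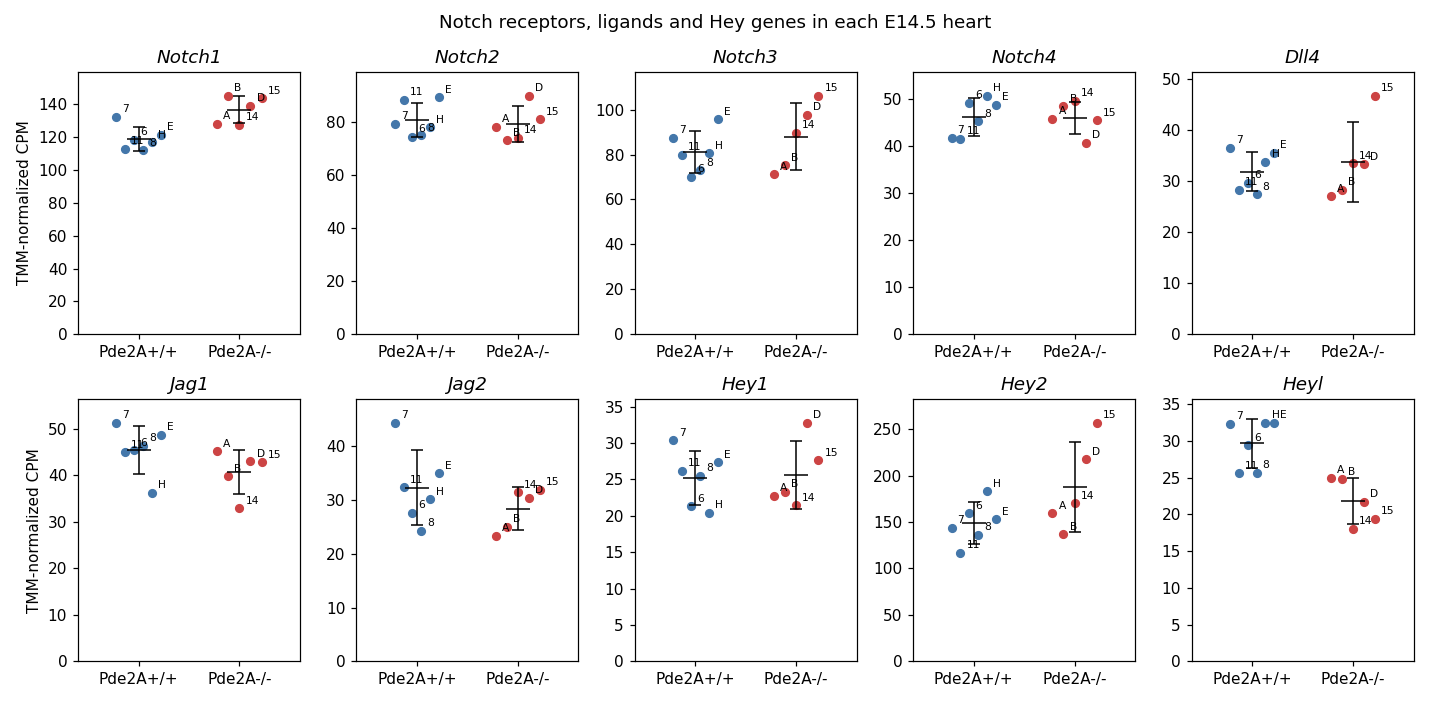
TMM-normalized CPM of each gene in every heart, with the replicate name beside each point and the group mean ± SD in black (6 Pde2A+/+ and 5 Pde2A-/- hearts). For Heyl all 5 Pde2A-/- hearts lie at or under 25.0 CPM and all 6 Pde2A+/+ hearts at or above 25.6 CPM, while for the other genes the points of the genotypes overlap.

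Notch1 (ENSMUSG00000026923, chromosome 2 from 26457903 to 26516663, minus strand, GRCm38) encodes the receptor best known in endocardium and arterial endothelium. Its level was 128, 145, 128, 139 and 144 CPM in Pde2A-/- hearts A, B, 14, D and 15, and in Pde2A+/+ hearts it ran from 112 CPM in heart 8 over a median of 118 to 132 CPM in heart 7. Hearts 15, B and D, 3 of the 5 Pde2A-/- hearts, lay above every Pde2A+/+ heart, and hearts A and 14 lay under heart 7 only, so that the genotypes overlapped through heart 7. The means were 137 ± 8.43 (SD, n = 5) and 119 ± 7.43 CPM (SD, n = 6). Notch1 was 1.15-fold higher in Pde2A-/- hearts, with a log2 fold change of 0.20 (SE 0.055, 95% interval 0.08 to 0.32; edgeR, adjusted p = 0.0295). The call was near the threshold and not stable when single hearts were left out. It was lost without Pde2A-/- heart D (adjusted p = 0.0699) or 15 (0.0671), or Pde2A+/+ heart 6 (0.0513), H (0.0522), 11 (0.0532) or 8 (0.0563). The log2 fold change hardly moved in these 6 fits, between 0.19 and 0.20. Without Pde2A+/+ heart 7, which had both the highest Notch1 of its group and the thymocyte transcripts, the log2 fold change was 0.23 (adjusted p = 0.0160).

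Part of the endothelial transcripts were also higher in Pde2A-/- hearts. In a list of 12 endothelial genes 5 were higher at the adjusted p, 7 did not pass and none was lower, and 4 were higher without Pde2A+/+ heart 7. All genes had 8.93% higher, and 25.1% called either way where they averaged 10 CPM or more. Among the 5 were the surface proteins Clec14a (log2 fold change 0.53, adjusted p = 0.000748) and Emcn (0.50, adjusted p = 0.00270), while the defining marker Cdh5 had 317 CPM in both genotypes. Of 5 endocardial genes 2 were higher, the endothelin receptor Ednrb (log2 fold change 0.50, adjusted p = 0.00418) and the valve factor Nfatc1 (0.34, adjusted p = 0.0189). The endocardial sums overlapped, with 709 to 936 CPM in Pde2A-/- and 625 to 783 CPM in Pde2A+/+ hearts. The sum of the endothelial list was 1754 to 1992 CPM in Pde2A-/- and 1395 to 1671 CPM in Pde2A+/+ hearts, without overlap. In each heart Notch1 amounted to between 69.8 and 79.5 CPM per 1000 CPM of this list in Pde2A-/- and to between 70.1 and 94.9 in Pde2A+/+ hearts, where heart 7 was the highest and the other 5 ended at 76.5. On this scale the genotypes overlapped over most of their range. Within the genotypes Notch1 did not vary with the sum of the list (Pearson's r = -0.12, Spearman's rho = 0.07 over the 11 hearts after subtraction of the genotype means). With the mean log2 level of the list as a covariate, the log2 fold change of Notch1 was 0.22, but its SE rose to 0.10 and the call was lost (adjusted p = 0.268). In whole hearts a change in the number of endothelial cells cannot be told apart from a change in transcripts per cell.

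Notch2 (ENSMUSG00000027878, chromosome 3), a widely expressed receptor, had 78.2, 73.0, 73.9, 89.8 and 80.9 CPM in Pde2A-/- hearts A, B, 14, D and 15, against 74.5 to 89.2 CPM (median 78.6) in Pde2A+/+ hearts. Both groups spanned the same levels, and the log2 fold change was -0.03 (SE 0.067, 95% interval -0.17 to 0.12, adjusted p = 0.840). On the same strand 5.02% of its exon bases are shared with Gm42820, and reads there count for neither gene.

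Notch3 (ENSMUSG00000038146, chromosome 17), the receptor of pericytes and vascular smooth muscle, varied more. Its level was 71.1, 75.2, 89.6, 97.7 and 106 CPM in Pde2A-/- hearts A, B, 14, D and 15 and 70.1 to 95.7 CPM (median 80.3) in Pde2A+/+ hearts. Hearts D and 15 lay above every Pde2A+/+ heart, whereas A and B lay at the lower end of the Pde2A+/+ range. The log2 fold change was 0.12 (SE 0.11, 95% interval -0.11 to 0.35, adjusted p = 0.511).

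Notch4 (ENSMUSG00000015468, chromosome 17), an endothelial receptor, had between 40.7 CPM in heart D and 49.5 CPM in heart 14 among Pde2A-/- hearts and between 41.4 and 50.6 CPM in Pde2A+/+ hearts, and the ranges covered each other nearly in full. The difference was -0.01 on the log2 scale (SE 0.068, 95% interval -0.15 to 0.14, adjusted p = 0.962).

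**Figure D2:**
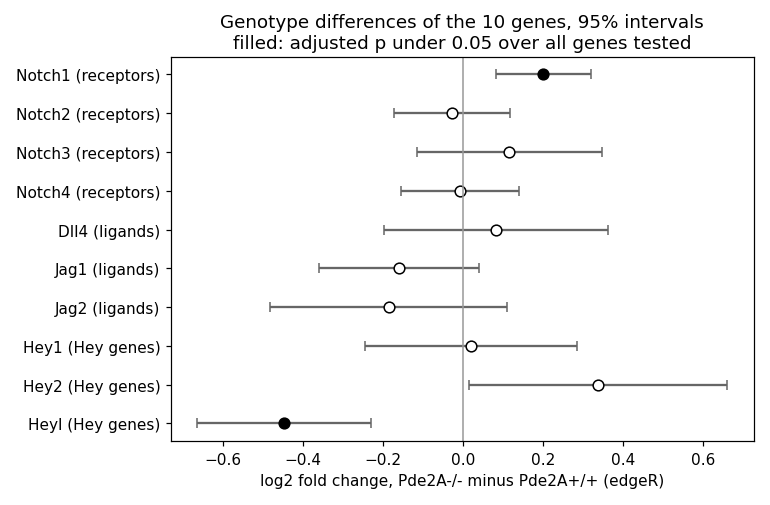
Log2 fold change of each gene, Pde2A-/- minus Pde2A+/+, with its 95% interval from the edgeR fit (5 against 6 hearts). Filled points passed the adjusted p over all genes tested: Notch1 at 0.20 and Heyl at -0.45, while Hey2 at 0.34 has the widest interval and did not pass.

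None of the 3 ligand genes passed the test. Dll4 (ENSMUSG00000027314, chromosome 2), the ligand of arterial endothelium, tip cells and early endocardium, had 27.1, 28.3, 33.5, 33.4 and 46.8 CPM in Pde2A-/- hearts A, B, 14, D and 15 and 27.5 to 36.6 CPM (median 31.8) in Pde2A+/+ hearts. Heart 15 alone stood above the Pde2A+/+ range, and the other 4 Pde2A-/- hearts lay within or just under it. The log2 fold change of 0.08 (SE 0.13, 95% interval -0.20 to 0.36, adjusted p = 0.726) turned to -0.06 when heart 15 was left out.

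Jag1 (ENSMUSG00000027276, chromosome 2), a ligand of endocardium and smooth muscle, was between 32.9 CPM in heart 14 and 45.1 CPM in heart A of the Pde2A-/- hearts and between 36.2 CPM in heart H and 51.2 CPM in heart 7 of the Pde2A+/+ hearts. Heart 14 was lower than every Pde2A+/+ heart, and heart H was the only Pde2A+/+ heart under 44.9 CPM. Jag1 had a log2 fold change of -0.16 (SE 0.093, 95% interval -0.36 to 0.04, adjusted p = 0.272).

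Jag2 (ENSMUSG00000002799, chromosome 12), the other Jagged ligand, ranged from 23.4 to 32.0 CPM in Pde2A-/- and from 24.4 to 44.4 CPM in Pde2A+/+ hearts. The highest value was that of Pde2A+/+ heart 7, and the next Pde2A+/+ heart had 35.0 CPM. Jag2 had a log2 fold change of -0.19 (SE 0.14, 95% interval -0.48 to 0.11, adjusted p = 0.399), and -0.07 without heart 7 (adjusted p = 0.719).

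The 3 Hey genes, which encode closely related repressors, differed from each other. Heyl (ENSMUSG00000032744, chromosome 4 from 123233556 to 123249875, plus strand), known from vascular smooth muscle and pericytes, had 25.0, 24.8, 18.0, 21.7 and 19.4 CPM in Pde2A-/- hearts A, B, 14, D and 15. In Pde2A+/+ hearts it had 25.6 and 25.7 CPM in hearts 11 and 8, 29.4 CPM in heart 6, and between 32.3 and 32.4 CPM in hearts 7, H and E. All 5 Pde2A-/- hearts lay below all 6 Pde2A+/+ hearts, but A and B were within 1 CPM of the lowest Pde2A+/+ hearts.

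The means of Heyl were 21.8 ± 3.13 (SD, n = 5) and 29.6 ± 3.31 CPM (SD, n = 6), and the gene fell by 0.45 on the log2 scale (SE 0.10, 95% interval -0.66 to -0.23; edgeR, adjusted p = 0.0130). The call held with each of the 11 hearts left out, with log2 fold changes between -0.50 and -0.38 and adjusted p-values up to 0.0369. Relative to Hey1 in the same heart, Heyl was 0.662 to 1.099 in Pde2A-/- and 0.977 to 1.59 in Pde2A+/+ hearts, which overlapped. Relative to Notch1 it was 0.135 to 0.195 in Pde2A-/- and 0.227 to 0.277 in Pde2A+/+ hearts, without overlap. Per 1000 CPM of the endothelial list it was 10.1 to 13.6 and 16.1 to 23.2 CPM, also without overlap. Notch1 and the sum of that list were themselves higher in Pde2A-/- hearts, and the ratios were not tested.

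A minority of the transcripts of mural and smooth muscle cells were called lower as well. Of 10 genes in that list 2 were lower at the adjusted p and none was higher. They were Cnn1, a smooth muscle actin-binding protein (log2 fold change -0.38, adjusted p = 0.0366), and Kcnj8, a potassium channel of pericytes (-0.31, adjusted p = 0.0465). All genes had 5.67% lower, and 25.1% either way where they averaged 10 CPM or more. Without Pde2A+/+ heart 7, 0 of the 10 were lower, and their median log2 fold change was -0.17, against -0.21 with all hearts. Among the 8 others 3 had a positive log2 fold change. They were Pdgfrb, the defining marker (0.14, adjusted p = 0.273), Abcc9 (0.26, adjusted p = 0.0787) and Myh11 (0.36, adjusted p = 0.581). The rest were negative: Acta2 (-0.27, adjusted p = 0.0732), Mylk (-0.25, adjusted p = 0.256), Rgs5 (-0.23, adjusted p = 0.653), Cspg4 (-0.19, adjusted p = 0.119) and Tagln (-0.01, adjusted p = 0.979). The sums of the list overlapped, with 1670 to 1936 CPM in Pde2A-/- and 1718 to 2411 CPM in Pde2A+/+ hearts. Per 1000 CPM of this list, Heyl was 9.93 to 14.2 CPM in Pde2A-/- and 12.2 to 16.4 CPM in Pde2A+/+ hearts, and 2 of the 5 Pde2A-/- hearts, 14 and 15, lay below every Pde2A+/+ heart. Heyl and the sum of the list had a Pearson's r of 0.28 and a Spearman's rho of 0.20 over the 11 hearts after subtraction of the genotype means. With the mean of the mural list as a covariate the fall of Heyl was -0.43 (adjusted p = 0.0161). With that of the endothelial list it was -0.56, with an SE that rose to 0.18 and an adjusted p of 0.134.

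Hey2 (ENSMUSG00000019789, chromosome 10 from 30832359 to 30842801, minus strand) was the most abundant of the 10 genes and the most uneven among Pde2A-/- hearts. It had 159, 137, 170.2, 217 and 257 CPM in hearts A, B, 14, D and 15, against 117 CPM in heart 11, a median of 148 and 183 CPM in heart H of the Pde2A+/+ hearts. Hearts D and 15 exceeded every Pde2A+/+ heart, and A, B and 14 lay inside the Pde2A+/+ range.

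The means of Hey2 were 188 ± 48.3 (SD, n = 5) and 149 ± 22.3 CPM (SD, n = 6). The log2 fold change of 0.34 (SE 0.15, 95% interval 0.02 to 0.66) did not pass the adjustment over all genes (adjusted p = 0.145). It was 0.20 without heart 15 (adjusted p = 0.370). It was 0.43 without heart B, where it passed narrowly (adjusted p = 0.0488), and 0.43 with the mean of the mural list as a covariate (adjusted p = 0.0358).

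The level of Hey2 relative to ventricular transcripts was examined after these values had been seen. In Pde2A+/+ hearts Hey2 followed the sum of 6 ventricular genes, of which Myl2 and Myl3, the ventricular myosin light chains, made up nearly all: it amounted to between 20.4 and 23.5 CPM per 1000 CPM of the list, over sums between 5204 and 7831 CPM. In Pde2A-/- hearts it amounted to 26.1, 21.4, 36.8, 48.1 and 61.2 CPM in A, B, 14, D and 15, where the list summed to 6113, 6373, 4625, 4522 and 4194 CPM. Heart B lay within the Pde2A+/+ range and the other 4 above it, and the Pde2A-/- heart with the lowest ventricular sum had the highest Hey2, in reverse order through all 5 hearts. These ratios were not tested. No ventricular gene was lower at the adjusted p: Myl2 had a log2 fold change of -0.42 (adjusted p = 0.0712), Myl3 of -0.28 (adjusted p = 0.0902), Irx4 of -0.32 (adjusted p = 0.163), Hand1 of -0.45 (adjusted p = 0.128) and Irx3 of 0.03 (adjusted p = 0.925). The sixth, the transcription factor Irx5, was higher (0.45, adjusted p = 0.0360). Whether the lower ventricular sum had a part in the ratio, which contains it, was not tested.

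**Figure D3:**
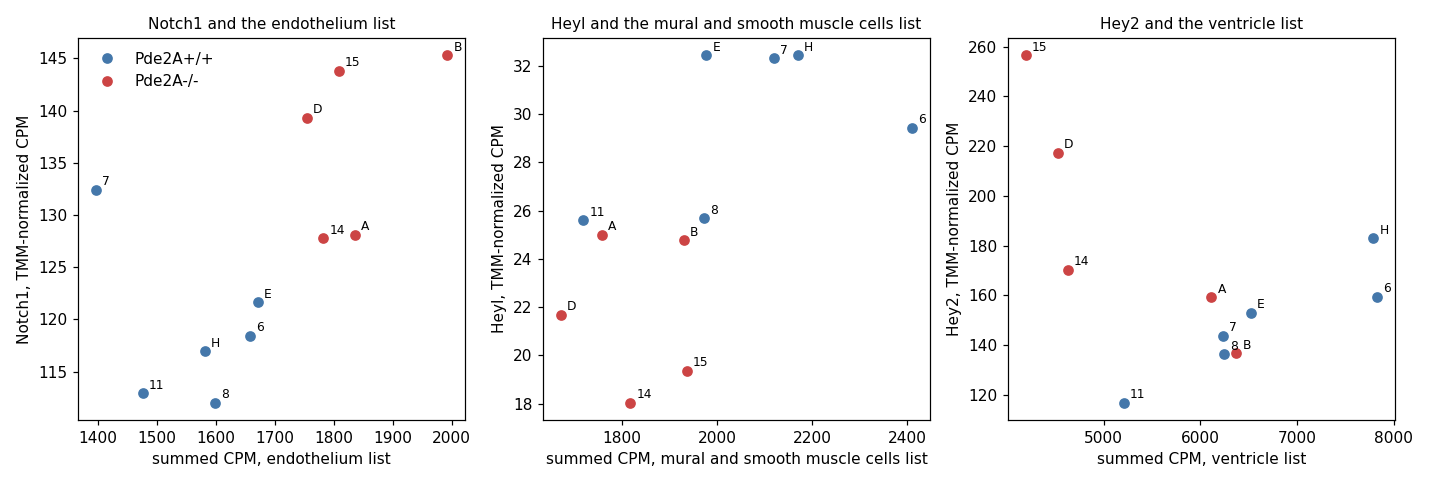
Each point is a heart, with its replicate name. The panels set the CPM of Notch1, Heyl and Hey2 (vertical axes, not from 0) against the summed CPM of the endothelial, mural and ventricular lists (horizontal axes, not from 0). Pde2A-/- hearts D and 15 join high Hey2 (217 and 257 CPM) with low ventricular sums (4522 and 4194 CPM), and Notch1 of Pde2A+/+ heart 7 (132 CPM) stands beside the lowest endothelial sum (1395 CPM).

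Hey1 (ENSMUSG00000040289, chromosome 3), the Hey gene of endothelium and atrial myocardium, had 22.8, 23.3, 21.4, 32.8 and 27.6 CPM in Pde2A-/- hearts A, B, 14, D and 15 and 20.5 to 30.4 CPM (median 25.8) in Pde2A+/+ hearts. Only heart D lay above the Pde2A+/+ range, and the difference was 0.02 on the log2 scale (SE 0.12, 95% interval -0.25 to 0.29, adjusted p = 0.934).

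Some genes in the lists of other cell types also differed between the genotypes. All genes had 8.93% higher and 5.67% lower, and 25.1% either way where they averaged 10 CPM or more. Macrophage genes differed most often, with 7 of 8 higher, led by the Fc receptor Fcgr1 (log2 fold change 1.19, adjusted p = 0.000102) and the complement gene C1qc (1.12, adjusted p = 0.000133), and with sums of 216 to 275 CPM in Pde2A-/- and 107 to 168 CPM in Pde2A+/+ hearts. Of 8 fibroblast genes 3 were higher, among them Postn (0.42, adjusted p = 0.00484) and Tcf21 (0.30, adjusted p = 0.0164). Of 10 cardiomyocyte genes 3 were lower, among them Ttn (-0.51, adjusted p = 0.0119) and Tnnc1 (-0.48, adjusted p = 0.00206). A positive log2 fold change was found in 2 of the 10, Myh6 (0.30, adjusted p = 0.225) and Ryr2 (0.17, adjusted p = 0.380). Of 6 atrial genes 1 was higher, Dkk3 (0.89, adjusted p = 0.00292), and 2 were lower, of which Nr2f1 had the larger change (-0.77, adjusted p = 0.0133). Of 6 epicardial genes 1 was lower, Tbx18 (-0.31, adjusted p = 0.0466), while 4 had a positive log2 fold change and the median was 0.14. Without Pde2A+/+ heart 7, 0 of the 6 passed. The sums of the fibroblast, cardiomyocyte, atrial and epicardial lists overlapped between the genotypes. The part of any of these cell types in the values of the 10 genes was not tested.

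Among Pde2A-/- hearts, 2 recurred at the upper end and 2 at the lower end. Heart 15 had the highest Dll4, Notch3 and Hey2 of all 11 hearts, and heart D was second in Notch3 and Hey2 and first in Hey1. Hearts A and B had the lowest Dll4, Jag2, Notch3 and Hey2 of their genotype and the highest Heyl. The same A and B had the lowest Bmp10, Bhlhe40, Bhlhe41 and Neurl3 among Pde2A-/- hearts, 4 genes of the wider pathway described next. This order was seen in the data and was not tested.

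The levels of the 10 genes can be compared with each other only per kilobase (kb) of exon. In Pde2A+/+ hearts Hey2 was far above all others with 32.4 ± 4.86 CPM per kb, followed by Notch3 (10.03 ± 1.16), Notch1 (8.37 ± 0.522), Dll4 (8.29 ± 1.01), Jag1 (7.80 ± 0.879), Hey1 (7.72 ± 1.15), Notch2 (7.48 ± 0.602), Heyl (5.80 ± 0.647), Notch4 (5.72 ± 0.494) and Jag2 (4.64 ± 0.999 CPM per kb; all SD, n = 6). Only 2 steps of this order separated neighbours without overlap, that from Hey2 to Notch3 and that from Notch2 to Heyl. Notch3 was above Notch1 in 6 of 6 hearts although their ranges overlapped, and the genes from Notch1 to Notch2 in the order did not differ from their neighbours beyond their spread, nor did Heyl and Notch4. In Pde2A-/- hearts the order was Hey2 (40.9 ± 10.5), Notch3, Notch1, Dll4, Hey1, Notch2, Jag1, Notch4, Heyl (4.26 ± 0.611) and Jag2 (4.09 ± 0.571 CPM per kb; all SD, n = 5), where Heyl had moved below Notch4 in 5 of 5 hearts without overlap.

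Within each family the shares per kb of exon differed little between the genotypes, apart from the Hey genes. Notch3 made up 31.7 ± 1.83% of the receptor transcripts in Pde2A+/+ and 32.3 ± 3.37% in Pde2A-/- hearts, and Notch1 26.5 ± 1.45% and 28.7 ± 1.81%. Dll4 was the leading ligand with 40.02 ± 2.92% and 43.8 ± 4.55%, ahead of Jag1 with 37.8 ± 3.70% and 35.5 ± 5.42%. Hey2 was 70.3 ± 3.90% of the Hey transcripts in Pde2A+/+ and 76.7 ± 4.05% in Pde2A-/- hearts, and Heyl 12.6 ± 0.672% and 8.41 ± 2.54%. The Heyl share ran from 11.8% to 13.5% in Pde2A+/+ hearts and from 5.56% to 11.6% in Pde2A-/- hearts, without overlap, and its SD was larger in the knockout.

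**Figure D4:**
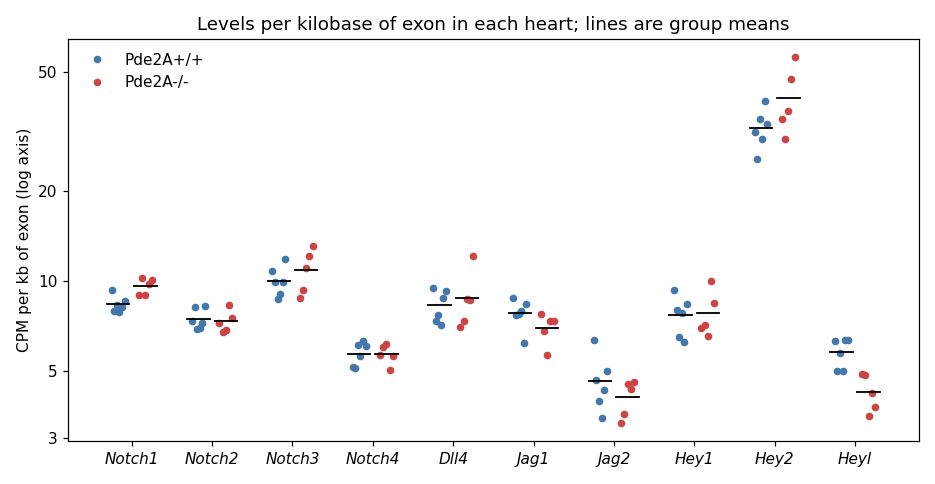
CPM per kb of exon for the 10 genes in every heart on a log axis, with a line at each group mean. Hey2 stands above 25 CPM per kb in all 11 hearts, and the other 9 genes lie between 3.35 and 13.1 CPM per kb.

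The other genes of the pathway were read from lists of ligands, processing enzymes, nuclear factors, targets and genes of the tissues in which Notch acts. Of 93 listed genes 90 passed the filter, and 16 were higher and 5 lower in Pde2A-/- hearts at the adjusted p, with a median log2 fold change of 0.02. All genes had 8.93% higher and 5.67% lower, and 25.1% either way where they averaged 10 CPM or more. The lists were written with earlier results of these data known, so nothing is read from their counts against these shares. Of these, 4 of the 16 and 1 of the 5 also reached a 2-fold change.

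Among 10 genes of receptor cleavage 4 were higher and 1 lower, and without Pde2A+/+ heart 7 2 were higher and 0 lower. Adam10, the protease of the first activating cut, rose from 265 ± 7.86 to 302 ± 11.6 CPM (log2 fold change 0.19, adjusted p = 0.0100). It was at 287 CPM or more in every Pde2A-/- heart and at 276 CPM or less in every Pde2A+/+ heart. The gamma-secretase genes Psen2 (0.35, adjusted p = 0.00486) and Aph1c (0.85, adjusted p = 0.0326) were also higher, Aph1c at a mean of only 1.22 CPM in Pde2A+/+ and 2.22 CPM in Pde2A-/- hearts, and Psenen, which encodes another subunit, was lower (-0.17, adjusted p = 0.0450). Psenen is on chromosome 7, as is Pde2a, and of the 6 tested pathway genes on that chromosome only Psenen passed.

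Of 5 genes that add sugars to the receptors none passed in either direction, and Pofut1, which adds fucose, had a log2 fold change of 0.01 (adjusted p = 0.903). None of 5 further ligand genes passed either. Dlk1, a non-canonical ligand, had 45.9 ± 18.0 CPM in Pde2A-/- and 46.3 ± 18.4 CPM in Pde2A+/+ hearts, and Dll1 11.02 ± 4.04 and 11.5 ± 0.989 CPM.

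In the list of ubiquitin transfer and endocytosis 4 of 18 genes were higher and none lower. Neurl3, a Neuralized-type ubiquitin ligase, rose from 9.38 ± 0.281 to 27.9 ± 9.19 CPM (log2 fold change 1.57, adjusted p = 8.61e-05), with 19.0, 18.1, 39.0, 34.1 and 29.2 CPM in hearts A, B, 14, D and 15 and at most 9.77 CPM in Pde2A+/+ hearts. Neurl1a (0.77, adjusted p = 0.0245), the Deltex gene Dtx3l (0.67, adjusted p = 0.00126) and the Notch inhibitor Numb (0.20, adjusted p = 0.0217) were the others. Dtx1, a Deltex gene that thymocytes also use, had 8.34 CPM in Pde2A+/+ heart 7 and at most 1.52 CPM in the other 10 hearts, and was named after its values had been seen.

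Of 19 genes of the nuclear complex the 2 Mastermind coactivators Maml1 (log2 fold change 0.20, adjusted p = 0.0401) and Maml2 (0.25, adjusted p = 0.0493) were higher and none was lower. Both calls were lost without Pde2A+/+ heart 7, where 0 of the 19 were higher and 0 lower. Rbpj itself, named after its value was seen, had a log2 fold change of 0.16 that did not pass (adjusted p = 0.0752), and the feedback inhibitor Nrarp one of 0.04 (adjusted p = 0.880).

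Among 6 genes of the Hes and related families 2 were higher and 1 lower. The sequence of the Hes5 promoter is shown above, and its transcript was scarce: 0 or 1 counts in each Pde2A-/- heart, 4 in all, and 5 to 15 counts in each Pde2A+/+ heart, 54 in all. Per read counted, Hes5 was 11.3 times as frequent in Pde2A+/+ hearts (95% interval 4.17 to 43.0 from counting error alone; edgeR, adjusted p = 0.000899). The genes that rose were Bhlhe40 (from 49.2 ± 11.02 to 138 ± 62.0 CPM, log2 fold change 1.49, adjusted p = 0.00286) and Bhlhe41 (1.22, adjusted p = 0.00540). Both encode bHLH repressors known from the circadian clock and from hypoxia rather than as Notch targets. Hes1, the most common Notch target of the list and named after its value was seen, had 26.2 and 28.7 CPM on average (log2 fold change -0.13, adjusted p = 0.209).

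Of 13 genes of arterial and venous endothelium 2 were higher and 2 lower. Flt4, a VEGF receptor of veins, lymphatics and sprouting endothelium, and Sox7, a SoxF factor, were higher by 0.36 (adjusted p = 0.0101) and 0.33 (adjusted p = 0.0103) on the log2 scale. Cxcr4, a chemokine receptor of arteries and coronary vessels, fell by 0.66 (adjusted p = 0.00405), and Sox17, the SoxF factor of arteries, fell by 0.44 (adjusted p = 0.0202). Cxcr4 was at 11.05 CPM or less in every Pde2A-/- heart and at 11.5 CPM or more in every Pde2A+/+ heart, while Sox17 overlapped between the genotypes. The other 9 genes of the list did not pass, among them the arterial genes Efnb2 (-0.12, adjusted p = 0.223), Gja5 (-0.11, adjusted p = 0.375), Unc5b (-0.05, adjusted p = 0.652), Gja4 (-0.03, adjusted p = 0.892) and Nrp1 (0.03, adjusted p = 0.689).

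Of 14 genes of endocardial signalling 2 were higher and 1 lower. Bmp10, a growth factor of trabecular myocardium, rose from 107 ± 32.3 to 395 ± 152 CPM (log2 fold change 1.88, adjusted p = 0.000532), with 219 and 240 CPM in hearts A and B and 495 to 515 CPM in 14, D and 15, against 70.1 to 164 CPM in Pde2A+/+ hearts. Fbln1, a matrix protein of the valves, was higher by 0.41 (adjusted p = 0.0235). Tbx2, a repressor of chamber genes in the atrioventricular canal, fell by 0.56 (adjusted p = 0.0105).

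**Figure D5:**
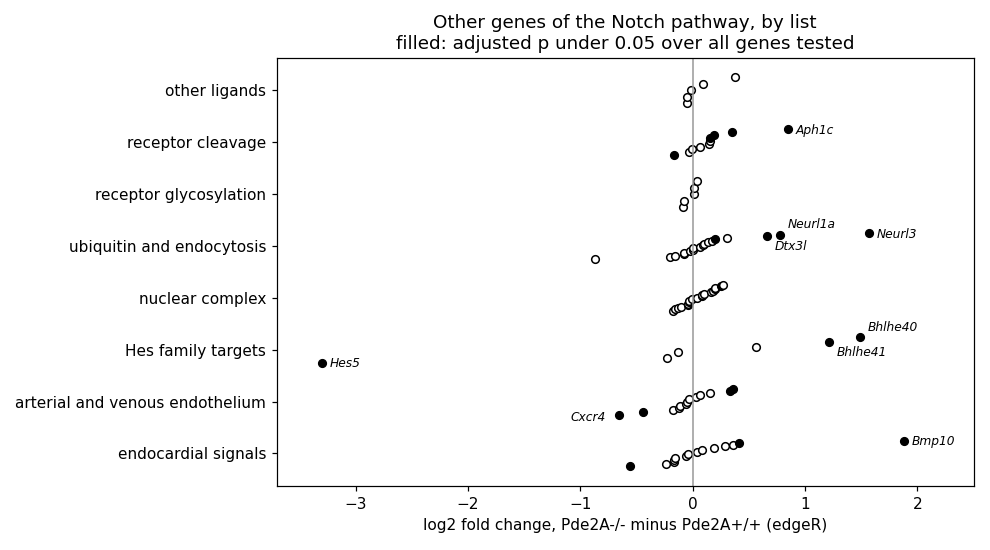
Log2 fold changes (Pde2A-/- minus Pde2A+/+, edgeR) of the 90 further pathway genes, 1 row of points per list, with filled points for the 16 higher and 5 lower genes at an adjusted p under 0.05 and names for those beyond 0.6 in size. Bmp10 (1.88), Neurl3 (1.57), Bhlhe40 (1.49) and Bhlhe41 (1.22) lie farthest to the right. Hes5 lies farthest to the left, on 4 and 54 counts.

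The genes that varied most like the 2 called members were sought among 11343 genes that averaged 5 CPM or more, by Pearson's r of log2 CPM over the 11 hearts after subtraction of the genotype means. Notch1 was most like Atxn7l1 (r = 0.94, Spearman's rho = 0.95) and Plcd1 (r = 0.89, rho = 0.80). Heyl was most like Prpf18 (r = 0.97, rho = 0.93) and B3galt1 (r = 0.95, rho = 0.86). These are the highest of many values from 11 libraries and are given as a description.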

How the data were processed

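RNA from 11 isolated embryonic hearts was sequenced as stranded mRNA libraries with single-end reads. STAR (version not given in the sources used here) aligned them to GRCm38 for the authors, who deposited, for each heart, whole-number counts of reads per gene without normalization. The sense-strand counts were used here, with names, positions and exon lengths from GENCODE M21. Genotypes came from the sample titles. The p-values set the genotype difference against the spread between these hearts and treat the hearts as independent. No batch or litter was stated, so neither could be taken into account. Genes with at least 10 counts over all hearts were compared by edgeR 4.0.16 (R 4.3.3) with TMM and the quasi-likelihood test. A gene was called at a Benjamini-Hochberg adjusted p under 0.05, with no covariate. CPM are TMM-scaled, and log2 CPM use a prior count of 2.

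The 10 members and the pathway and cell type lists were chosen with earlier results of these data known. Named were the members; per pathway list up to 4 genes past the adjusted p by size, or 2 by level when none passed; the 2 largest called genes per cell type list; and 2 genes most like each called member. Other list genes that did not pass (Cdh5, Myh6, Ryr2, the mural, ventricular and arterial genes, Rbpj, Nrarp, Hes1 and Dtx1) were named after their values were seen. The result of the erythroid list is not reported here. Alternatives were DESeq2 1.42.0 in place of edgeR, its size factors, filterByExpr, no filter, reads of both strands, erythroid genes left out, 4 covariates, a 2-fold threshold, and each heart left out. Promoters came from RefSeq (GRCm38.p6). Ratios and figures used Python 3.11.15 with pandas 2.3.3, scipy 1.17.1 and matplotlib 3.10.9.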

Additional observations from a re-analysis of the deposited data

How the results depend on the processing

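Of the 210 values of log2 fold change that the alternatives gave for the 10 genes, 200 kept their side of the threshold, 8 lost the call and 2 gained it. The sign turned in 18 of them and in 0 for Notch1 and Heyl, all for Notch2, Notch4, Dll4, Jag2 and Hey1, none of which was called. DESeq2 called 1 member higher and 1 lower, as edgeR did, with adjusted p-values of 0.00398 for Notch1 and 0.000446 for Heyl. With the mean of the endothelial list as a covariate, 0 members were higher and 0 lower, and 1 pathway gene was higher and 0 lower. That covariate itself did not overlap between the genotypes, and the SE of Notch1 rose from 0.055 to 0.10. With the mural list as a covariate 2 members were higher. With a 2-fold change required as well, 0 members were higher and 0 lower, and 4 pathway genes were higher and 1 lower. When hearts were left out 1 at a time, 0 to 2 members were higher and 1 in every fit was lower, and between 9 and 19 pathway genes were higher and between 3 and 5 lower, against 16 and 5 with all hearts. No paired analysis was possible because the genotypes share no replicate name.

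The depth was not the limit for the members, which had at least 703 counts in every heart. It was for Hes5, with 0 or 1 counts in Pde2A-/- hearts. With 5 and 6 hearts, a variation of 16.8% (edgeR's common estimate) between hearts of one genotype, unknown sex and litter, and libraries that held transcripts of other organs, values that missed the threshold do not show that the genotypes were equal.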
